A study of Mus musculus with 6 samples.

Results

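Adrenergic and renin-angiotensin genes were followed in the hearts of tumour-bearing mice given doxorubicin (Dox), ginsenoside Rh2 or both. The group was chosen by name as 8 genes of the 45777 in the deposited table. They are the adrenoceptors Adrb1, Adra1a and Adra1b, the angiotensinogen gene Agt, the angiotensin-converting enzyme gene Ace, the angiotensin receptors Agtr1a and Agtr2, and the mineralocorticoid receptor gene Nr3c2. Dox is an anthracycline used against cancer and limited in use by damage to the heart, and Rh2 is a steroid-like saponin from ginseng. The study asked what Rh2 does to a heart exposed to Dox.

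All 6 groups were female BALB/c nude mice (CAnN.Cg-Foxn1nu/Crl) aged 6 weeks, an athymic strain that lacks mature T cells but keeps other immune cells. Every mouse, Control included, carried a subcutaneous tumour of MDA-MB-231, a human breast cancer line. Treatment began on day 7 and ran for 3 weeks. Control received vehicle. Rh2 was injected daily, and the groups Rh2-20 mg/kg and, at the higher dose, Rh2-30 mg/kg are shortened below to Rh2-20 and Rh2-30. The group Dox had 2 mg/kg of the drug every other day, 22 mg/kg in all. The last pair, Rh2-20 + Dox and Rh2-30 + Dox, had both drugs at these doses. Each group was 1 library made from RNA of 5 pooled hearts, so no condition had a second library.

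Noradrenaline and adrenaline act on the heart through the β1-adrenoceptor, which raises the rate and force of beating through cyclic AMP, and through the α1-adrenoceptors, which signal through phospholipase C. In the renin-angiotensin system, renin cuts angiotensinogen to angiotensin I, angiotensin-converting enzyme turns it into angiotensin II, and angiotensin II acts on its type 1 receptor to constrict vessels and to drive aldosterone release. Aldosterone acts on the mineralocorticoid receptor, and blockers of several of these steps are used in heart failure.

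All 8 genes were measured in these hearts, but at very different levels. Compared per transcript length as fragments per kilobase scaled to library depth (FPKM, mean ± SD over the 6 libraries), Ace stood at 23.9 ± 4.04, Nr3c2 at 13.3 ± 1.37 and Agtr1a at 7.89 ± 1.28. Adrb1 had an FPKM of 2.79 ± 0.280, Adra1b of 1.17 ± 0.339 and Adra1a of 0.900 ± 0.264. Agt was at an FPKM of 0.516 ± 0.318 and Agtr2 at 0.0373 ± 0.0427. The ranges over libraries of Ace, Nr3c2, Agtr1a and Adrb1 did not overlap with each other or with those of the lower genes, so the order of these was the same in every library. Adra1b, Adra1a and Agt had overlapping ranges. Adra1b was above Agt in 6 of 6 libraries, whereas Adra1b was above Adra1a in 4 and Adra1a above Agt in 5, so the order of Adra1a among them was not settled. Agtr2 was the lowest of the 8 in each library.

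**Figure D1:**
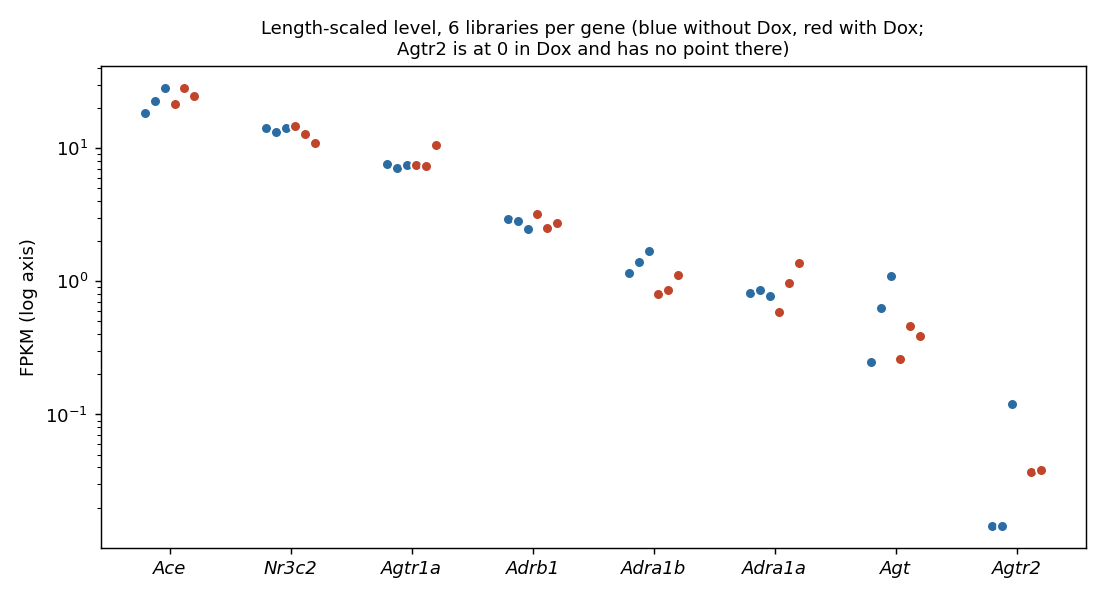
FPKM (log axis) of the 8 genes in the 6 libraries, blue without Dox and red with Dox, in the order Control, Rh2-20, Rh2-30, Dox, Rh2-20 + Dox and Rh2-30 + Dox. Mean FPKM ran from 23.9 for Ace to 0.0373 for Agtr2, and the widest spreads lay in the lowest genes, Agt and Agtr2.

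Between libraries, levels of 1 gene are given below as CPM (counts scaled to library size after TMM normalization), from the deposited read counts, and gene positions come from the RefSeq annotation of GRCm38.p6 (mm10). The libraries held 86164411 to 90621002 counts each, and tests covered the 18328 genes whose mean reached 10 counts, among them all 8. Since no condition was replicated, tests were run on the 3 libraries with Dox against the 3 without, on the 4 libraries with Rh2 against the 2 without (with Dox as a term), and on the interaction of both. The libraries on each side differ in the other drug or its dose, so the p-values measure the spread between such libraries. Heart muscle markers (Myh6, Tnnt2, Actc1, Tnni3, Ryr2) were high throughout, and the library of Rh2-30 stood apart in markers of atrium and fat. The summed atrial markers Myl7, Myl4, Sln and Bmp10 were at 1074 CPM there, at 305 in Rh2-20 + Dox and at 188 in Dox. In Control, Rh2-20 and Rh2-30 + Dox they were at 1.51 to 25.9 CPM. Bmp10 went another way and was highest in Rh2-20 + Dox, at 83.4 CPM against 5.63 in Rh2-30. The summed markers of fat cells (Adipoq, Plin1, Cidec, Ucp1) were at 136 CPM in Rh2-30 and at 0.288 to 14.0 CPM elsewhere. Blood markers (Hba-a1, Hba-a2, Hbb-bs, Alas2) summed to 9337 CPM in Dox, 5308 in Rh2-20 + Dox and 1472 in Rh2-30 + Dox, against 2313 to 3203 CPM without Dox. These are bulk samples, so fewer cells of a type and less RNA per cell cannot be told apart.

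None of the 8 genes passed an adjusted p of 0.05 in edgeR's quasi-likelihood test in any of the 3 tests. For Dox, 0.0273% of all genes tested passed, and for Rh2 and the interaction 0% did. DESeq2 called 0 of the 8 too (with no adjusted p for Agt and Agtr2 with Rh2 and for Agtr2 with Dox), beside 2.32% of all genes for Dox, 1.32% for Rh2 and 0.207% for the interaction. At an unadjusted p under 0.05 in edgeR, 1 member was lower with Dox (Adra1b, beside 5.91% of all genes) and 0 were higher (beside 4.2%). With Rh2, 2 were higher (Agt and Ace, beside 4.09%) and 1 was lower (Nr3c2, beside 4.65%). None of the 8 reached it for the interaction, beside 2.71% of all genes. The intervals were wide. That of Agt for Dox ran from -1.92 to 0.39 on the log2 scale, and that of Adra1a from -0.58 to 0.76, so differences of more than 1.5-fold remain possible for both.

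Agt encodes angiotensinogen, the precursor of all angiotensins, which is made above all in the liver and in smaller amounts in fat and heart. It was low in libraries without Rh2 and higher in each library with Rh2. The reads numbered 53 in Control and 54 in Dox (0.636 and 0.643 CPM). With Rh2 alone they numbered 135 at 20 mg/kg and 236 at 30 mg/kg (1.499 and 2.489 CPM), and with Rh2 and Dox 101 and 85 (1.10 and 0.978 CPM). The 4 libraries with Rh2 thus did not overlap with the 2 without, and those with Rh2 alone were higher than those with both drugs. The difference with Rh2 was 1.15 on the log2 scale (SE 0.37, 95% interval 0.24 to 2.06, unadjusted p = 0.0218), with an adjusted p of 0.567 in edgeR and 0.364 to 0.872 under the alternatives. For Dox the difference was -0.76 (SE 0.49, edgeR adjusted p = 0.649, 0.534 to 0.921 under the alternatives), while Dox alone was at the level of Control. Without Rh2-30 the difference with Dox was -0.23.

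Agt was highest in the library that stood apart. Without Rh2-30 its difference with Rh2 was 0.94 (unadjusted p = 0.0212 in edgeR), and without Control it was 0.69. The summed fat markers were at 6.55 CPM in Rh2-20, 136 in Rh2-30, 6.92 in Rh2-20 + Dox and 0.288 in Rh2-30 + Dox, against 1.27 in Control and 14.0 in Dox. All 4 of these markers were highest in Rh2-30, and Ucp1 was at 0 in Control and Dox. Their part in the level of Agt was not tested. Of the liver markers, Alb was at 0 to 0.300 CPM, Apoa1 at 0 to 0.0444, Ttr at 0 to 0.299 and Serpina1a at 1.01 to 1.57 CPM. The sum of Ttr and Serpina1a, the 2 of these with enough counts to be tested, was 1.28 to 1.59 CPM with Rh2 and 1.19 and 1.64 CPM without.

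Ace, which turns angiotensin I into angiotensin II and breaks bradykinin down, is best known from the endothelium. It had the highest level of the group. Its reads numbered 10071 in Control and 11691 in Dox (121 and 139 CPM). They numbered 12754 in Rh2-20, 16027 in Rh2-30, 16384 in Rh2-20 + Dox and 14223 in Rh2-30 + Dox (142, 169, 179 and 164 CPM). All 4 libraries with Rh2 were above both without, although Rh2-20 exceeded Dox by little. The difference with Rh2 was 0.33 on the log2 scale (SE 0.10, 95% interval 0.08 to 0.58, unadjusted p = 0.0194), with an adjusted p of 0.567 in edgeR and 0.102 (DESeq2) to 0.872 under the alternatives. The difference with Dox was 0.16 (SE 0.15, edgeR adjusted p = 0.770, 0.588 to 0.935 under the alternatives), and 0.05 to 0.30 with 1 library left out. The summed endothelial markers Pecam1, Cdh5, Kdr, Tie1 and Tek were at 1414 to 1617 CPM with Rh2 and at 1509 and 1643 CPM without, and at an unadjusted p under 0.05 0 of the 5 were higher and 1 was lower with Rh2 (Tie1, -0.21). Ace overlaps the long non-coding RNA Gm11651, with a mean of 9.67 counts, and how reads of the overlap were divided is not known.

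As Agt and Ace were both higher in each library with Rh2, the sequences ahead of their first exons are shown (RefSeq, GRCm38.p6, 250 bases up to the start, read on the strand of the gene, capitals marking the TATA motif TATAAA or, for Ace, its reverse complement TTTATA). Agt lies at chr8:124556587-124569706 on the minus strand and its window at chr8:124569707-124569956. Ace lies at chr11:105967948-105989964 on the plus strand, and its window at chr11:105967698-105967947 precedes the first of its 2 starts in the table.
Agt: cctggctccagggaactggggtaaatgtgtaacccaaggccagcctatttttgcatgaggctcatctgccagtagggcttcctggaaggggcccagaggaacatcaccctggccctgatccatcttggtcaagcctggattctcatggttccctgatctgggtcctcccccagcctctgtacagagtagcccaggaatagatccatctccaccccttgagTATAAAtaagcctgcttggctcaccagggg
Ace: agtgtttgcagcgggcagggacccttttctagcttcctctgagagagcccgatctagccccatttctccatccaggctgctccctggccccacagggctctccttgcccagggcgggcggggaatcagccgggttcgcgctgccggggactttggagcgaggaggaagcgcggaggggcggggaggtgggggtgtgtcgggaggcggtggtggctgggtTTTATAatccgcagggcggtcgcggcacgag
The motif began 30 bases ahead of the start in Agt and 31 bases ahead in Ace, where it lies on the other strand. Searched on both strands in 32851 windows of 250 bases before and 50 after a start, TATAAA was in 13.6%, and of the 8 windows listed for the members it was in these alone. The window of Ace shown was rich in G and C (69.7%, with 29 CpG), while the window of its other start had 59.0% and 2 CpG. That of Agt was close to the median of all windows in G and C (54.7% against 52.7%) but had fewer CpG (1 against 7). The windows cover 6 of the 8 genes. That of Adrb1 had 72.3% G and C and 28 CpG, that of Nr3c2 65.7% and 17, and that of Agtr2 41.3% and 5. The 2 windows of Adra1b had 71.3% and 42.3%. The corticosteroid receptor half-site TGTTCT, found in 19.0% of all windows, was in none of these members' windows. A match or its absence describes these letters only.

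**Figure D2:**
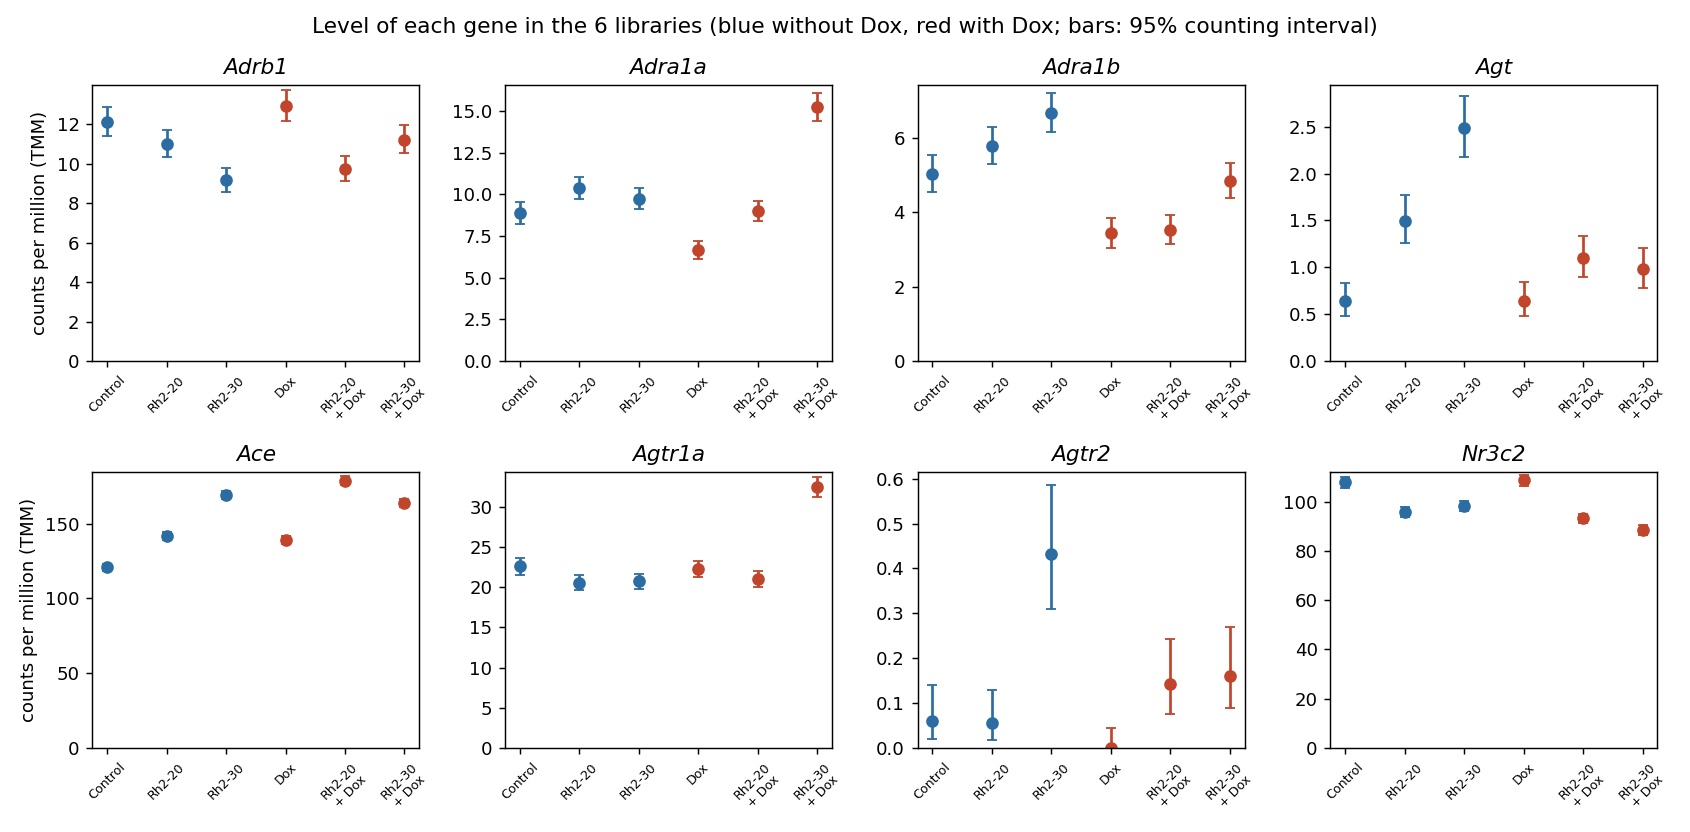
Level of each of the 8 genes (CPM after TMM, axis from 0) in the 6 libraries, blue without Dox and red with Dox, with bars for the 95% counting interval. Agt was at 0.636 and 0.643 CPM in Control and Dox and at 0.978 to 2.49 CPM with Rh2, Adra1b was lower in each library with Dox than in each without, and Adra1a and Agtr1a were highest in Rh2-30 + Dox.

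Agtr1a (chr13:30336356-30382867), the main receptor by which angiotensin II constricts vessels and promotes cardiac growth, was flat in 5 libraries and higher in 1. It was at 22.6 CPM in Control, 20.5 in Rh2-20, 20.7 in Rh2-30, 22.2 in Dox and 21.0 in Rh2-20 + Dox. In Rh2-30 + Dox it was at 32.5 CPM (2821 reads, against 1849 to 1967 in the others). That library exceeded Control by 0.52 on the log2 scale, with a counting interval of 0.44 to 0.61. The interval that adds the dispersion between libraries ran from -0.16 to 1.20 and included 0. Over all libraries the difference with Dox was 0.25 (SE 0.17, edgeR adjusted p = 0.680, 0.617 to 0.963 under the alternatives) and that with Rh2 was 0.06 (SE 0.20, edgeR adjusted p = 0.940, 0.681 to 0.945). Without the library of Rh2-30 + Dox, the difference with Rh2 was -0.11 and that with Dox was 0.02. In the same library the cardiomyocyte markers summed to 24377 CPM, against 18012 to 22880 elsewhere, and macrophage markers to 184 CPM, against 203 to 374. Pericyte markers (Kcnj8, Abcc9, Pdgfrb, Rgs5) had their highest sum there too, at 1030 CPM, against 749 to 994. Sums of fibroblast (705 CPM, against 779 to 1142), endothelial (1414, against 1472 to 1643) and smooth muscle markers (277, against 313 to 549) were lowest there. Not every marker followed its sum. Ryr2 was at 5138 CPM in Rh2-30 + Dox, against 4839 to 6033 elsewhere. Mrc1 was lowest in Dox, at 124 CPM against 127 in Rh2-30 + Dox. The pericyte marker Pdgfrb was highest in Dox, at 163 CPM against 137 in Rh2-30 + Dox. The fibroblast marker Dcn was lowest in Control (432 CPM, against 473 in Rh2-30 + Dox). Lowest in Dox was the endothelial marker Cdh5 (206 CPM, against 224), and in Rh2-30 the smooth muscle marker Myh11 (119 CPM, against 120). The part of these markers in the level of Agtr1a was not tested. Agtr1b, the close paralogue of Agtr1a, had a mean of 2.33 counts, and how reads shared by both were divided is not known.

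Agtr2 (chrX:21484624-21488833), the type 2 receptor, is abundant before birth and scarce in the adult heart. It was close to the limit of detection, with 5 reads in Control, 5 in Rh2-20, 0 in Dox, 13 in Rh2-20 + Dox and 14 in Rh2-30 + Dox. Rh2-30 had 41 reads (0.432 CPM, against 0 to 0.161 elsewhere). Taking 3 reads as the limit that a count of 0 allows, the value in Dox stands for up to 0.0357 CPM. Its 95% counting interval reaches 0.0439 CPM. Rh2-30 exceeded Control by 2.74 on the log2 scale, with a counting interval of 1.51 to 4.55. The adjusted p in edgeR was 0.572 for Rh2 (0.398 to 0.872 under the alternatives) and 0.856 for Dox (0.779 to 0.962). Rh2-30 is the library highest in the summed atrial and fat markers, whose part in the level of Agtr2 was not tested. Without it, the difference with Dox turned from -0.85 to 0.81.

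Nr3c2 (chr8:76898083-77245012), the receptor of aldosterone and, where the enzyme Hsd11b2 is scarce, of glucocorticoids too, varied least of the 8 in CPM. Hsd11b2 itself was at 0.0327 to 0.264 CPM. The level of Nr3c2 was 108 CPM in Control and 109 in Dox. It was 95.8 in Rh2-20, 98.4 in Rh2-30, 93.2 in Rh2-20 + Dox and 88.4 in Rh2-30 + Dox. In CPM the 4 libraries with Rh2 lay below the 2 without. In FPKM they overlapped, with Rh2-30 at 14.2 and Control at 14.1. With Rh2 the difference was -0.21 on the log2 scale (SE 0.07, 95% interval -0.39 to -0.03, unadjusted p = 0.0318), with an adjusted p of 0.568 in edgeR and 0.143 (DESeq2) to 0.872 under the alternatives. The difference with Dox was -0.06 (SE 0.10, edgeR adjusted p = 0.894, 0.736 to 0.995 under the alternatives).

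Adrb1 (chr19:56722117-56725150), the β1-adrenoceptor and the target of beta blockers, moved little. It was at 12.1 CPM in Control and 12.9 in Dox, and at 11.03 in Rh2-20, 9.16 in Rh2-30, 9.76 in Rh2-20 + Dox and 11.2 in Rh2-30 + Dox. The libraries with and without Dox overlapped, whereas all 4 with Rh2 were below the 2 without. The difference with Dox was 0.07 (SE 0.15, 95% interval -0.29 to 0.43, edgeR adjusted p = 0.913, 0.776 to 0.980 under the alternatives). The difference with Rh2 was -0.28 (SE 0.12, 95% interval -0.58 to 0.02, edgeR adjusted p = 0.572, 0.430 to 0.872 under the alternatives).

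Adra1b (chr11:43774605-43901250), which encodes the α1B-adrenoceptor, was the only member whose libraries with and without Dox did not overlap. It was at 5.02 CPM in Control, 5.76 in Rh2-20 and 6.67 in Rh2-30. With Dox it was at 3.43 CPM in Dox, 3.52 in Rh2-20 + Dox and 4.83 in Rh2-30 + Dox, so that the highest library with Dox was close to Control. Of all genes tested, 9.16% were lower with Dox with no overlap. The difference was -0.57 on the log2 scale (SE 0.19, 95% interval -1.02 to -0.12, unadjusted p = 0.0205), with an adjusted p of 0.403 in edgeR and 0.196 (DESeq2) to 0.633 under the alternatives. It was lower with Dox in 12 of 12 of these. Without Rh2-30, the difference was -0.44, with an unadjusted p of 0.0703 in edgeR. With Rh2 the difference was 0.30 (SE 0.18, edgeR adjusted p = 0.636, 0.427 to 0.896 under the alternatives).

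Adra1a (chr14:66635251-66771240) encodes the α1A-adrenoceptor, the other main α1 subtype of the mouse heart muscle cell. It was lowest in Dox, at 6.65 CPM, and highest in Rh2-30 + Dox, at 15.2 CPM. The other libraries lay between, with 8.87 CPM in Control, 10.4 in Rh2-20, 9.73 in Rh2-30 and 8.98 in Rh2-20 + Dox. All 4 with Rh2 were above both without, although Rh2-20 + Dox exceeded Control by less than the counting error (log2 ratio 0.02, counting interval -0.13 to 0.16). The difference with Rh2 was 0.51 (SE 0.26, 95% interval -0.15 to 1.16, edgeR adjusted p = 0.603, 0.431 to 0.935 under the alternatives). It was 0.18 without Dox, 0.29 without Rh2-30 + Dox and 0.86 without Control. Between the libraries with Dox, Rh2-30 + Dox exceeded Dox by 1.19 on the log2 scale, with a counting interval of 1.05 to 1.34 and a wider interval, with the dispersion, of 0.50 to 1.88. These 2 libraries were also the highest and lowest in summed blood markers, as above. The same held for summed smooth muscle markers (549 CPM in Dox and 277 in Rh2-30 + Dox), although Acta2 was higher in Control (264 CPM) than in Dox (243). Summed cardiomyocyte markers had another order. They were at 24377 CPM in Rh2-30 + Dox and 22880 in Dox, against 18012 to 22496 elsewhere. The part of these markers in the level of Adra1a was not tested. The difference with Dox over all libraries was 0.09 (SE 0.28, edgeR adjusted p = 0.941, 0.627 to 0.996 under the alternatives) and turned to -0.30 without Rh2-30 + Dox. Adra1a was counted over several transcripts. The ratio of CPM, here without TMM, to FPKM ranged from 9.43 to 13.5 between libraries for this gene. It varied less for the others (7.23 to 7.77 for Nr3c2). In FPKM, Rh2-30 was therefore at 0.778, below Control at 0.814, and the libraries with and without Rh2 overlapped.

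Counted together, 3 of the 8 genes were higher (Agt, Ace and Adra1a) and 2 lower (Adrb1 and Nr3c2) in all 4 libraries with Rh2 than in both without. Of all genes tested, 9.87% were higher and 9.08% were lower in this way. The count was 5 with DESeq2's size factors (18.7% of all genes, in either direction), 4 in FPKM (20.1%) and 5 without Rh2-30 (25.2%), with the same 5 genes in the first and last of these. In FPKM, Adra1a and Nr3c2 no longer held and Agtr2, with 5 reads in Rh2-20 and in Control, did. At an unadjusted p under 0.05 without that library, 2 members were higher and 1 was lower with Rh2, beside 4.17% and 3.74% of all genes. For Dox without it, 0 members were higher or lower, beside 4.31% and 4.77%.

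**Figure D3:**
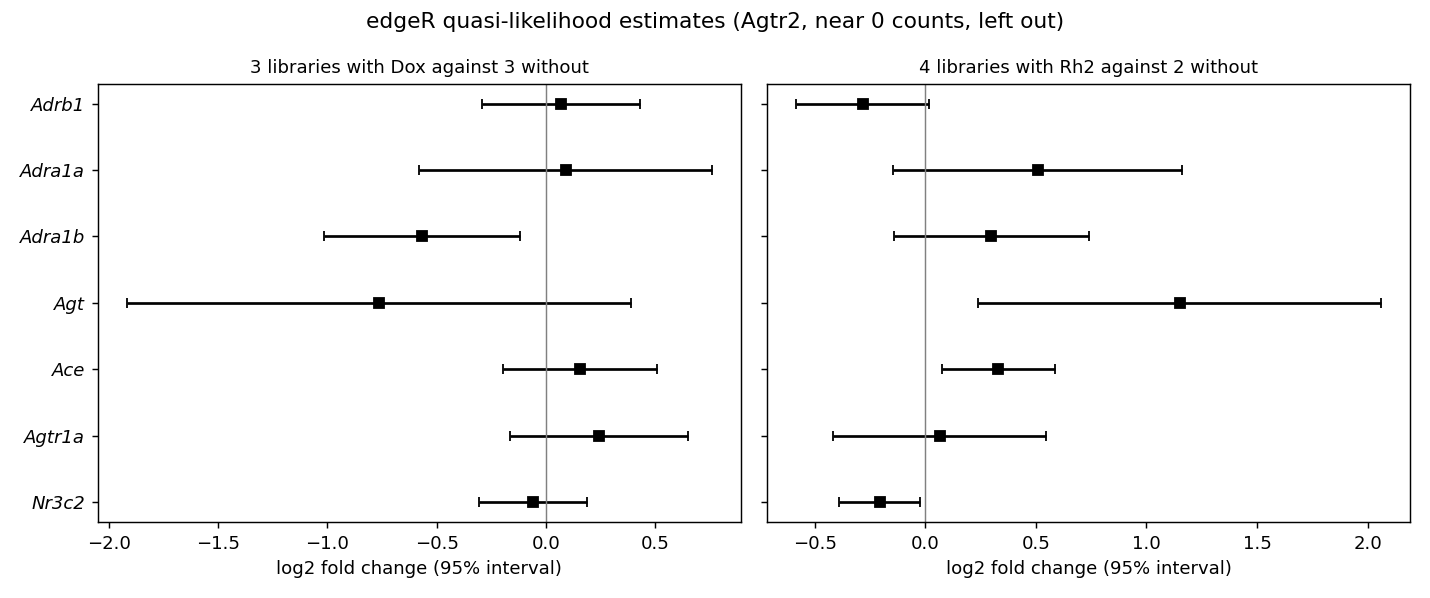
Log2 fold change with its 95% interval from edgeR's quasi-likelihood test for 7 of the 8 genes, with Dox against without on the left and with Rh2 against without on the right. For Dox the interval of Adra1b lies below 0 (-1.02 to -0.12), and for Rh2 those of Agt and Ace lie above 0 and that of Nr3c2 below, before any adjustment for the number of genes.

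The question whether Rh2 altered the response to Dox was put to the interaction, in which no member passed. For Agt the interaction was -0.95 on the log2 scale, a smaller difference with Rh2 where Dox was given (SE 0.64, edgeR adjusted p = 0.989, at least 0.865 under the alternatives). For Adra1a the interaction was 0.68 (SE 0.48, edgeR adjusted p = 0.989, at least 0.632). The unadjusted p of the other 6 ranged from 0.197 for Agtr2 to 0.956 for Adra1b. The intervals were wide here too, from -2.62 to 0.71 for Agt and from -0.56 to 1.93 for Adra1a.

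The study named edgeR for the significance of its genes. For those it clustered, it joined a change of at least 2-fold with an unadjusted p under 0.05 in a t-test. Single comparisons of 2 libraries have no replicate check, so at least 2-fold alone was the limit here. Against Control, Agt was past it in Rh2-20 (3.35% of all genes were higher to this extent), with a log2 ratio of 1.23 and a counting interval of 0.77 to 1.72. Agt and Agtr2 were past it in Rh2-30 (8.48%), where Agt had a log2 ratio of 1.96 (1.53 to 2.43). Agtr2 alone was past it in Rh2-20 + Dox (5.13%), Rh2-30 + Dox (4.08%) and, in the lower direction, Dox (3.58%). These rest on 13 and 14 reads against 5, with counting intervals that include 0 (-0.34 to 3.08 and -0.13 to 3.25), and on 0 against 5. That last is 1.68-fold lower when 3 reads are taken for 0, and its counting interval reaches 0.11, so no change is included. Against Dox, Agtr2 had 13 reads in Rh2-20 + Dox (3.08% of all genes were at least 2-fold higher) and 14 in Rh2-30 + Dox, against 0. Its counting intervals start at 1.48 and 1.68 on the log2 scale. In Rh2-30 + Dox, Adra1a was past the limit too (2.76%). Adrb1, Adra1b, Ace, Agtr1a and Nr3c2 were past it in none of the 7 comparisons.

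The other genes of both pathways were read from lists of 5 to 21 tested genes. None passed an adjusted p of 0.05 in edgeR for Dox or Rh2, and counts below are at an unadjusted p under 0.05, to be read beside the shares of all genes (4.2% higher and 5.91% lower with Dox, 4.09% and 4.65% with Rh2). Without Rh2-30 those shares were 4.31% and 4.77% with Dox and 4.17% and 3.74% with Rh2. Of 5 other adrenoceptors, 0 differed with either drug. Adra1d, the α1D-adrenoceptor, was at 1.84 to 2.52 CPM. Adrb3, the β3-adrenoceptor of fat, was at 5.54 CPM in Rh2-30 and at 0 to 0.478 CPM elsewhere, and is named after its values were seen. Of 21 transducers (G proteins, adenylyl cyclases, phospholipases and kinases), 1 was higher and 0 were lower with Dox (1 and 2 without Rh2-30), and 2 were higher (the protein kinase A subunits Prkacb, by 0.28, and Prkar2a, by 0.42) and 1 lower with Rh2 (the phospholipase Plcb1, -0.40). The 1 with Dox was Adcy6, a main adenylyl cyclase of heart muscle, at 328 to 383 CPM without Dox and 447 to 559 CPM with it. Its difference was 0.53 (SE 0.12, adjusted p = 0.264 in edgeR and 0.00296 in DESeq2).

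Of 18 genes that damp or localize the adrenergic signal (receptor kinases, arrestins, phosphodiesterases, G protein regulators and anchoring proteins), 4 were lower with Dox, beside 5.91% of all genes, and 0 were higher. Without Rh2-30, 5 were lower, beside 4.77%, and 0 were higher. Akap5 encodes a scaffold that holds protein kinase A and phosphatases at the receptor. It was at 31.1, 25.7 and 24.4 CPM in Control, Rh2-20 and Rh2-30 and at 12.5, 8.37 and 11.3 CPM in Dox, Rh2-20 + Dox and Rh2-30 + Dox. Each library with Dox was below each without, and the difference was -1.33 on the log2 scale (SE 0.17). Its adjusted p was 0.103 in edgeR and 4.75e-09 in DESeq2. The other 3 were the receptor kinase Grk5 (-0.30), the phosphodiesterase Pde4b (-0.45) and the G protein regulator Rgs2 (-0.60), with adjusted p of 0.369 to 0.403 in edgeR. With Rh2, 2 phosphodiesterases that break cyclic AMP down were lower, Pde4a (-0.33, adjusted p = 0.567 in edgeR and 0.0214 in DESeq2) and Pde4b (-0.34), and 1 gene was higher, Rgs5 (0.29), a regulator found in pericytes. Of 8 genes that make, move or break down catecholamines, 0 differed with Dox. With Rh2, 1 was higher and 0 were lower, the breakdown enzyme Maob (0.49), and the median of the 8 was 0.38, or 0.20 without Rh2-30, against 0.01 over all genes.

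Of 17 other renin-angiotensin genes, 0 were higher and 2 were lower with Dox, and 0 differed with Rh2. Without Rh2-30, 1 was higher (the peptidase Mme, named after its values were seen) and 1 lower (Enpep) with Dox, and 1 was higher with Rh2 (Mme again). Enpep, the aminopeptidase that shortens angiotensin II to angiotensin III, was at 17.8 to 27.1 CPM without Dox and 11.1 to 14.5 CPM with it. The difference was -0.74 (SE 0.18, edgeR adjusted p = 0.300, DESeq2 adjusted p = 0.0111). The other was the mast cell chymase Mcpt4 (-0.87, edgeR adjusted p = 0.459). Ren1, the renin gene, had a count of 0 in each library. Of 13 genes known to respond to angiotensin II, 2 were lower with Dox (Rcan1, -0.33, and Tgfb1, -0.33) and 0 were higher, with a median of -0.33 against -0.01 over all genes. Without Rh2-30 neither of these passed, 1 other gene was lower (Acta1) and 1 was higher (Nppa), both named after their values were seen, and the median was -0.14. Nppa was at 594 CPM in Rh2-30, 193 in Dox and 181 in Rh2-20 + Dox, against 36.1 to 73.8 elsewhere. These libraries were also the highest in summed atrial markers, whose part in the level of Nppa was not tested. With Rh2, 0 of the 13 differed.

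The mineralocorticoid receptor Nr3c2 shares many targets with the glucocorticoid receptor Nr3c1, which was at 69.0 to 89.1 CPM. Cyp11b1 and Cyp11b2, which complete the synthesis of corticosterone and aldosterone, had 0 counts in each library. Of 8 tested genes of corticosteroid synthesis and receptors, 1 was higher (Fkbp5) and 1 lower (Star, -0.55) with Dox, and 1 was higher with Rh2 (Fkbp5). Of 11 tested corticosteroid target genes, 6 were higher and 0 lower with Rh2, with a median of 0.31 against 0.01 over all genes and beside the 4.09% of all genes given above. They were Errfi1, a brake on the EGF receptor, Tsc22d3, a glucocorticoid-induced regulator of inflammation, the co-chaperone Fkbp5, the kinase Sgk1, the transcription factor Klf9 and the lipocalin Lcn2. Errfi1 was at 35.0 and 33.8 CPM in Control and Dox, at 64.7 and 82.4 CPM with Rh2 alone at 20 and 30 mg/kg, and at 48.4 and 48.2 CPM with Rh2 and Dox. It lay above both others in each library with Rh2, and the difference was 0.78 (SE 0.17, adjusted p = 0.567 in edgeR and 0.00206 in DESeq2). DESeq2 also called Fkbp5 (0.92, adjusted p = 0.0305) and Tsc22d3 (0.43, adjusted p = 0.0320). Without Rh2-30 the count was 6 of 11 again. Only 3 of the 11 (Errfi1, Tsc22d3 and Klf9) were higher in all 4 libraries with Rh2 than in both without, beside 9.87% of all genes. Fkbp5, Sgk1 and Lcn2 overlapped between these libraries. This list, like the others, was chosen with earlier results of these data known. With Dox, 2 were higher, Fkbp5 (1.09) and Zbtb16 (0.58), and 0 were lower, and without Rh2-30 1 was higher (Fkbp5).

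**Figure D4:**
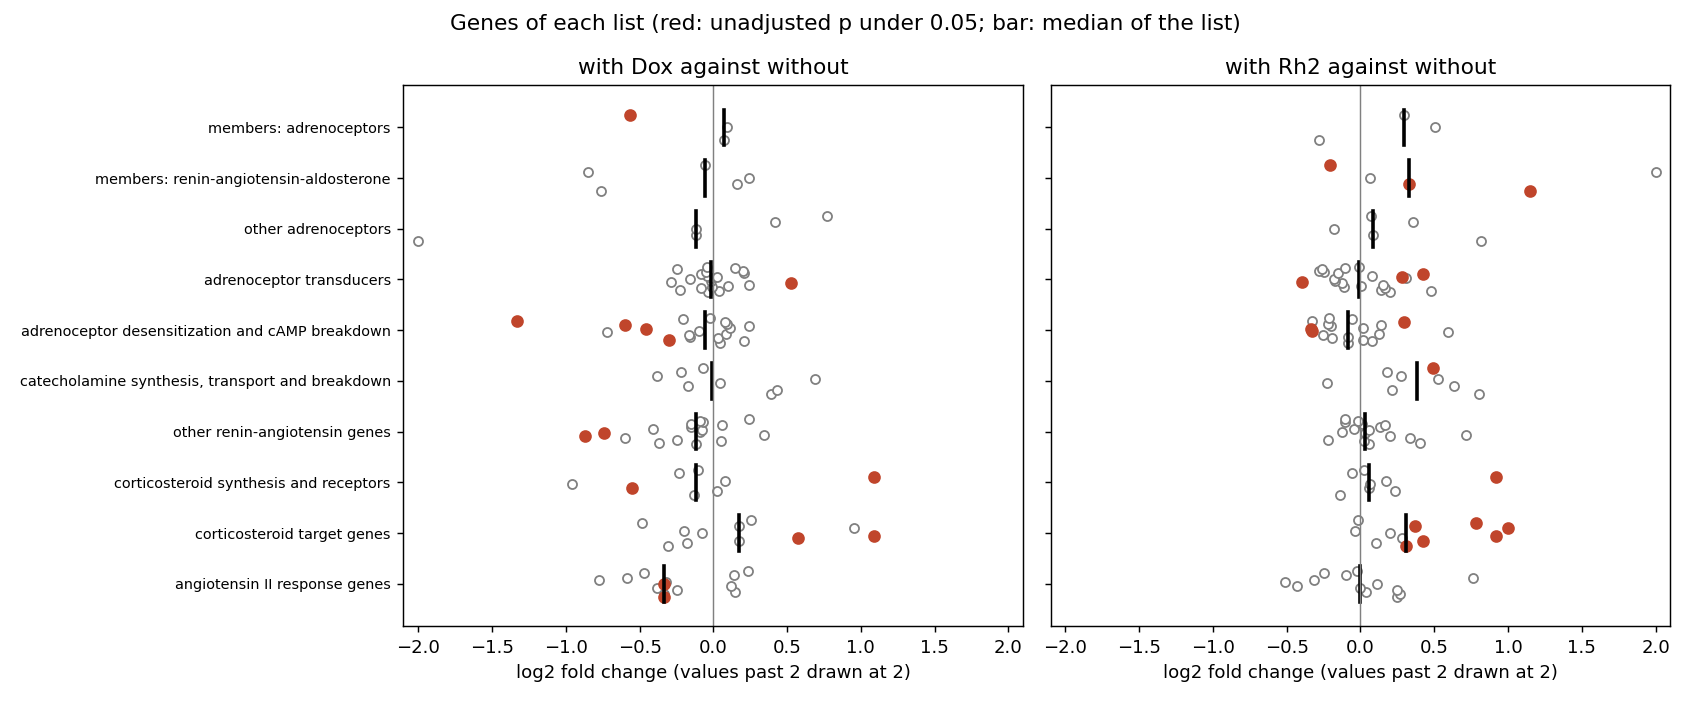
Log2 fold change of each tested gene in the member groups and the 8 pathway lists, with Dox on the left and with Rh2 on the right, red where the unadjusted p in edgeR was under 0.05, with a bar at the median of the list. Values past 2 to either side are drawn at 2. Corticosteroid target genes had 6 of 11 red and higher with Rh2, and the genes that damp or localize the adrenergic signal had 4 of 18 red and lower with Dox.

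**Figure D5:**
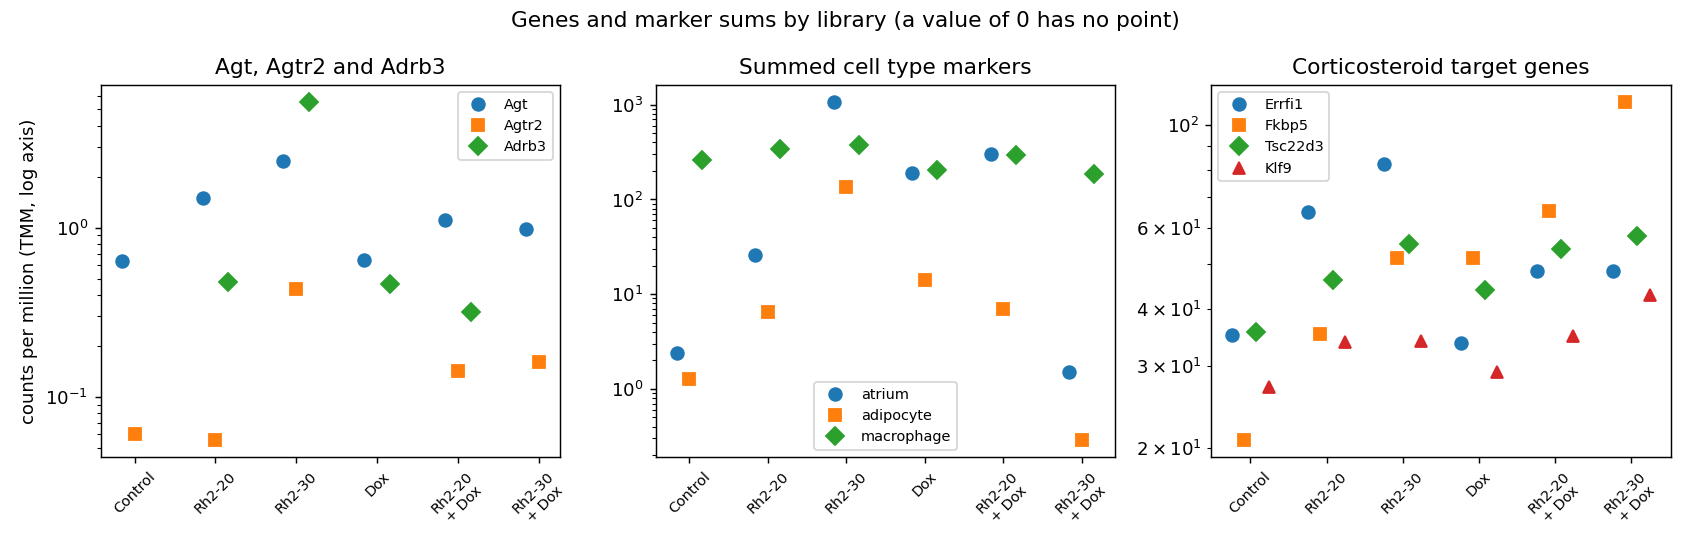
CPM (log axis) by library of Agt, Agtr2 and Adrb3, of summed markers of atrium, fat cells and macrophages, and of 4 corticosteroid target genes. The library of Rh2-30 is highest in Agt, Agtr2, Adrb3 and in the summed atrial and fat markers, while Fkbp5 is highest in Rh2-30 + Dox.

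As a description of likeness, the genes whose log2 CPM followed each member most closely over the 6 libraries were found among all genes tested. Pearson's r was 0.993 between Agt and Errfi1 and 0.990 between Agt and BE692007. It was 0.996 between Adrb1 and Numa1, 0.997 between Adra1a and Psmd13, 0.995 between Adra1b and Rnf125, 0.992 between Ace and Gm12669 and 0.996 between Agtr1a and Tfdp2. For Nr3c2 it was 0.990 with Edem2, and for Agtr2, with few reads, 0.996 with Gm39627. Over only 6 libraries, which share their normalization, 40 to 161 genes had an r of at least 0.95 with each member.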

How the data were processed

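RNA of 6 heart libraries, 1 for each condition and each from 5 pooled hearts, was analysed. Per the labels and the study's methods, the authors captured and sequenced the RNA, trimmed the reads, aligned them to mm10 with HISAT2 2.1.0 and estimated abundance with StringTie 2.1.3b; the strand setting is not given in the sources used here. The deposited read count of each gene was a whole number without normalization. The deposited FPKM values were scaled by the authors to transcript length and depth, and the deposited TPM values, scaled by the authors to 1 total per library, served no test.

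Genes with a mean of 10 counts or more (18328) were tested in R 4.3.3 with edgeR 4.0.16 (TMM, quasi-likelihood test, two-sided, Benjamini-Hochberg adjustment over all genes tested). Ratios of single libraries used a prior count of 0.5, with 95% exact binomial intervals for counting error and wider ones that add a common dispersion of 0.0285. Intervals and limits for a count of 0 (3 counts) cover counting error only. The 8 genes, the pathway lists and the tests were chosen with earlier results of these data known. Named were all 8 genes, the list genes at an unadjusted p under 0.05 or else the best covered of a list, and for each of the 8 the genes of highest correlation. Alternatives used DESeq2 1.42.0, limma 3.58.1 on FPKM, other filters and scalings, and each library left out in turn. The tests were checked on simulated counts, in which libraries differed in the tested effect only and all genes had the same dispersion. The changed genes were drawn from better covered ones, all above the mean of 13 counts of Agtr2. At an adjusted p under 0.05, 82% of genes changed 2-fold were recovered for Dox, 87% for Rh2 and 6% for the interaction. At 4-fold these were 100%, 100% and 85%. The interaction test could thus miss most 2-fold changes even in this setting. In the data, where dispersion differs between genes and libraries differ in the other drug or its dose, recovery can be lower for each test. Figures were drawn with matplotlib 3.10.9. Sequences came from RefSeq (GRCm38.p6). Proteins and histology were not analysed here, and some genes of the pathway lists are not reported here and were left out of the counts of their lists.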

Additional observations from a re-analysis of the deposited data

How the results depend on the processing

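The number of the 8 genes that passed an adjusted p of 0.05 was 0 for Dox, Rh2 and their interaction under each alternative, and under each library left out (lowest and highest 0). The interaction could not be estimated without Control or without Dox, each the only library of its combination. The labels carry no replicate numbers. With the Rh2 dose as a factor, which pairs libraries by dose, Adra1b stayed lower with Dox (-0.57, edgeR adjusted p = 0.511).

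Counts past 2-fold between single libraries depended on the scale, since the lowest genes have few reads. With FPKM + 1 the count was 0 in all 7 comparisons. With FPKM + 0.1 it was 0 in Rh2-20 + Dox, Rh2-30 + Dox and Dox against Control and in Rh2-20 + Dox against Dox, and 1 in Rh2-30 against Control and in Rh2-30 + Dox against Dox. With a prior count of 2 it was 0 in Rh2-20 + Dox against Control. At 1.5-fold it was 2 in Rh2-20 + Dox against Control, 3 in Rh2-30 + Dox against Control and 2 in Rh2-20 + Dox against Dox.

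The sign of some differences changed when 1 library was left out, among them those of Agtr2 and Adrb3, which were not near 0. For Dox, the lowest and highest values were -0.0377 and 0.166 for Adrb1, -0.30 and 0.33 for Adra1a, -1.34 and 0.81 for Agtr2, -0.15 and 0.00393 for Nr3c2, -0.21 and 0.0228 for Adra1d and -3.64 and 0.11 for Adrb3. For Rh2 they were -0.13 and 0.27 for Agtr1a, -0.0233 and 0.189 for Adra1d and -1.53 and 11.1 for Adrb3. For the interaction they were -0.17 and 0.11 for Adrb1, -0.27 and 0.19 for Adra1b and -0.18 and 0.0664 for Ace. The interaction of Agtr2 turned to -0.0174 with FPKM + 1 and to -0.00657 with FPKM + 0.1, and the Rh2 difference of Adra1d to -0.0274 with the dose as a linear term. The causes were not tested. Depth limits Agtr2, at 0 to 41 reads, most.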
